A study of Homo sapiens with 8 samples.

Results

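This account concerns DDIT4 and 9 other genes that control mTORC1, measured in 786-O, a line from clear cell renal carcinoma that lacks working VHL. The 10 genes were chosen by name, and each was represented by the probe set that names it alone and has the highest mean level over all 8 arrays. They are DDIT4, DDIT4L, TSC1, TSC2, RHEB, MTOR, RPTOR, DEPTOR, AKT1S1 and EIF4EBP1, out of 18417 genes with such a probe set. A level filter, set at the percentile 40 of the mean over the arrays, kept 11050 genes and 8 of the 10, leaving DDIT4L and DEPTOR below it. DDIT4 was already known from earlier results of these data to be lower with PT2399 in parental cells, so its values there are a description and support nothing.

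The 8 arrays were 786-O cells labelled parental or HIF2a null (made with CRISPR, with no clone or pool named), each given DMSO or 2 uM PT2399 for 24 h or 48 h. PT2399 binds HIF2a and blocks its pairing with ARNT, and HIF2a is encoded by EPAS1. All cells shared the VHL-deficient background and the same medium with serum. The growth note of every sample speaks of null cells, and genotype was taken from the titles. There was 1 array for each condition, and the 2 genotypes were handled in independent experiments, as the series description states. A gap in level between the genotypes therefore cannot be told apart from a gap between experiments. The 24 h pair and the 48 h pair were the repeats of a treatment effect. An error here comes from the spread between those pairs, drawn by limma towards a value shared by all genes tested.

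mTORC1 is a kinase complex that drives protein synthesis and cell growth when nutrients, growth factors and oxygen are sufficient. Growth factor signals reach it through the small GTPase RHEB, which the TSC1-TSC2 complex keeps in its inactive form. DDIT4, also called REDD1, is induced by hypoxia and other stresses and releases TSC2 to act on RHEB, and HIF factors and ATF4 are among its known activators. In clear cell renal carcinoma the loss of VHL keeps HIF2a active without hypoxia, and mTOR inhibitors are used against this cancer.

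The promoters of DDIT4 and of its paralog DDIT4L are shown because the compound targets a DNA-binding HIF complex, whose core site is known to be ACGTG or, with another first base, GCGTG. Each run is the 250 bases before the annotated RefSeq start (GRCh38.p14), 5′ to 3′ on the strand of the gene. Capitals mark these core sites or the TATA element TATAAA, all searched on both strands. The DDIT4 window lies at chr10:72273674-72273923 on the plus strand and the DDIT4L window at chr4:100190469-100190718 on the minus strand.
DDIT4: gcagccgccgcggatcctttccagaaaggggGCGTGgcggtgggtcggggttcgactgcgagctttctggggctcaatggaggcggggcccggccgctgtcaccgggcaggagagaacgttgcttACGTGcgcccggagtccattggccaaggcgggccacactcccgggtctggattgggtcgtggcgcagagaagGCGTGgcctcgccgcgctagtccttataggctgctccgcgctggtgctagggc
DDIT4L: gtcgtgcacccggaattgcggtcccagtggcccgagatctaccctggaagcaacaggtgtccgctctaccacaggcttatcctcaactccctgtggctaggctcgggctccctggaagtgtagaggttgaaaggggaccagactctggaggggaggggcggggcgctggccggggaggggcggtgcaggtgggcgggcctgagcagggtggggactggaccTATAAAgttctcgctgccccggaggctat

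The DDIT4 window held 3 HIF core matches, GCGTG beginning 219 and 53 bases before the start and ACGTG beginning 125 bases before it. The DDIT4L window held 0 core matches and a TATAAA beginning 29 bases before the start. Of 35116 promoter windows of this length in the table, 43.2% held at least 1 core match and 7.76% at least 3, while 10.7% held TATAAA. The table held windows for 7 of the 10 genes, and had no entry for DEPTOR, AKT1S1 or EIF4EBP1. RPTOR had 2 core matches, both GCGTG on the strand opposite the gene, and MTOR and RHEB had 1 each. TSC2, listed with 2 starts, had a palindromic CACGTG at the first, which counts on both strands, and 0 matches at the other, and TSC1 had 0. A match describes these letters only, and no binding was measured.

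Array means lay between 436.9 and 462.8 intensity units, and array medians between 99.4 and 133.8. The highest median was on the parental 24 h PT2399 array, against 112.7 for its DMSO partner. The null 48 h PT2399 array stood apart: over the genes above the filter it correlated with the other null arrays at 0.777 to 0.831, while those correlated among themselves at 0.94 to 0.983. On that array 26.3% of genes differed at least 2-fold from its DMSO partner, against 0.208% for the null 24 h pair, 1.62% for the parental 24 h pair and 0.335% for the parental 48 h pair. Null intensities are therefore given by time. The kidney lineage genes PAX8 (1983 to 2562 over the arrays) and PAX2 (321 to 469) and the keratin KRT8 (1911 to 2740) were above the filter on every array. All 4 endothelial markers were below it. Of 3 leukocyte markers PTPRC (at most 24.0) and CD3E (27.4 to 133) were below it by their means, while CD68, a lysosomal protein of macrophages that other cells also make, ran from 672 to 1252. Of 4 fibroblast and pericyte markers PDGFRB (70.3 to 120) and RGS5 were below it in the same sense, and COL1A1 (117 to 171) and ACTA2 (125 to 218) were above it. The part of such cells in the results was not tested. EPAS1 in DMSO had 1277 and 1010 on the parental arrays and 650 and 585 on the null arrays, a check of the labels only in part, since an edited gene can still be transcribed. The data are bulk RNA, so less RNA per cell and fewer cells holding it cannot be told apart.

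DDIT4 was the one member with a large difference in parental cells. Its intensity was 1786 in DMSO and 815 with PT2399 at 24 h, and 1174 in DMSO and 473 with PT2399 at 48 h. Both PT2399 arrays lay below both DMSO arrays. The mean difference was -1.22 on the log2 scale (SE 0.28, 2 pairs), or 2.33-fold lower, with -1.13 at 24 h and -1.31 at 48 h. Among the 11050 genes this was the 27th lowest mean difference, the 54th lowest at 24 h and the 14th lowest at 48 h. The SE of 0.28 takes in the spread of the null pairs, and a fit on the parental arrays alone gave SE 0.14 for the same difference. The other members above the filter had SE 0.13 or 0.14 in that fit, so this value is not particular to DDIT4.

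**Figure D1:**
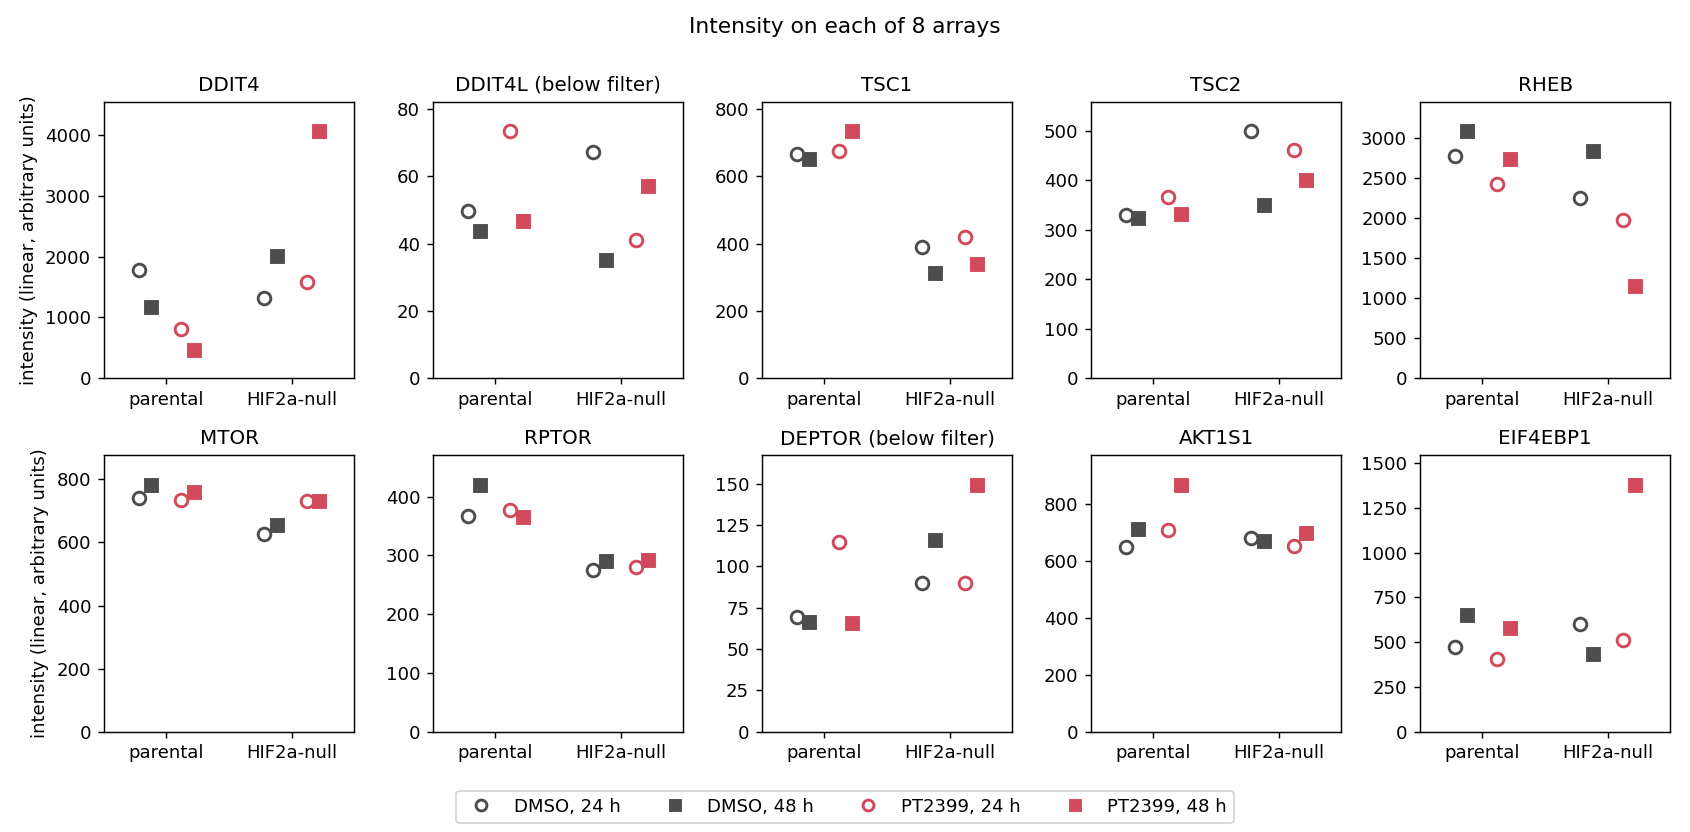
Intensity (linear, arbitrary units, axis from 0) of the 10 genes on each of the 8 arrays, with DMSO in grey, PT2399 in red, 24 h as open circles and 48 h as filled squares; each point is 1 array. DDIT4 runs from 473 to 1786 in parental cells and from 1316 to 4064 in null cells, and TSC1 and RPTOR are lower on all null arrays than on all parental arrays.

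In null cells DDIT4 was not lower with PT2399. It had 1316 in DMSO and 1582 with PT2399 at 24 h, and 2003 in DMSO and 4064 with PT2399 at 48 h. The PT2399 array was thus the higher of the pair at both times, by 0.27 at 24 h and by 1.02 at 48 h (log2), although the 2 treatments overlapped across times. The mean difference was 0.64 (SE 0.28, 2 pairs), and the 48 h value rests on the array that stood apart. At 24 h, without that array, the DDIT4 difference of 0.27 was the 1548th highest of 11050 genes.

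The parental difference in DDIT4 was lower than the null difference by 1.40 at 24 h and by 2.33 at 48 h (log2). The mean of this gap was -1.87 (SE 0.39), the 12th lowest of all genes. The gap contains the parental difference known beforehand, so its rank, share and adjusted p are a description too. Genes with a gap of at least 2-fold in this direction at both times made up 0.299% of those tested, and DDIT4 was the 1 member among them. With the null 48 h arrays left out the gap was -1.49. The null arm of that fit was the single 24 h pair, so its error held no spread between null pairs and is not given. With all arrays the mean gap of -1.87 did not pass by limma over all 11050 genes (adjusted p = 0.945). Over most alternatives its adjusted p ran from 0.809 to 1. The exception was the fit without the null 24 h arrays (adjusted p = 0.00738), which called 3477 genes and whose null arm was the single pair with the array that stood apart, so that value says nothing particular to DDIT4.

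Across the 8 conditions DDIT4 was lowest in parental cells with PT2399, at 473 (48 h) and 815 (24 h). Parental DMSO at 48 h followed at 1174, then null DMSO at 24 h at 1316, null PT2399 at 24 h at 1582, parental DMSO at 24 h at 1786 and null DMSO at 48 h at 2003. The highest was null PT2399 at 48 h at 4064. The model gave a spread of 0.39 (log2) for a difference between 2 single arrays of the same genotype, which holds no spread between the experiments. The steps among the 5 middle conditions, 0.16, 0.27, 0.17 and 0.17, were all smaller than this. All but the 0.27 cross the 2 experiments, so the 0.39 is no measure for them. The steps of 0.79 and 0.53 at the low end and of 1.02 at the high end were larger, each within 1 genotype. The 1.02 involves the array that stood apart. In the same time point, PT2399-treated parental cells had less DDIT4 than untreated null cells, by 0.69 at 24 h and by 2.08 at 48 h (log2), which spans the 2 experiments.

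DDIT4L, the paralog also called REDD2, stayed low. It lay between 43.7 and 73.5 in parental cells and between 35.3 and 67.3 in null cells, below the filter limit of 118 on every array. Its PT2399 difference in parental cells was 0.56 at 24 h and 0.10 at 48 h, and the null pairs gave -0.71 and 0.70. At these levels the values show no direction for DDIT4L.

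TSC1 and TSC2, the partners of the complex that inactivates RHEB, differed little with treatment. TSC1 had 666 and 652 in parental DMSO (24 h and 48 h) and 676 and 734 with PT2399. In null cells it had 389 and 313 in DMSO and 421 and 341 with PT2399. TSC1 was thus slightly higher with PT2399 in all 4 pairs, with a mean of 0.10 in parental (95% interval -0.46 to 0.66) and 0.12 in null cells (-0.44 to 0.68). The parental value was -0.01 when each array was centred on its median.

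TSC2, the subunit that acts on RHEB, had 329 and 323 in parental DMSO and 367 and 332 with PT2399. In null cells it had 499 and 350 in DMSO and 461 and 400 with PT2399. Its difference was 0.10 in parental cells (SE 0.23) and 0.04 in null cells (SE 0.23), where the 24 h and 48 h pairs had opposite signs. The parental mean of TSC2 was also -0.01 after centring.

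RHEB, the GTPase that switches mTORC1 on, was slightly lower with PT2399 in parental cells and lower at 48 h in null cells. Parental intensities were 2783 and 3089 in DMSO and 2424 and 2737 with PT2399, a mean of -0.19 (95% interval -0.99 to 0.61). Null intensities were 2250 and 2844 in DMSO and 1983 and 1148 with PT2399, with -0.18 at 24 h and -1.31 at 48 h. RHEB was thus alike in 3 pairs and 2.48-fold lower in the pair with the array that stood apart. A dimmer RHEB probe set gave -0.31 and -0.22 for the parental pairs and -0.07 and -0.92 for the null pairs.

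MTOR, the kinase itself, was the steadiest of the 10 genes, with a highest intensity 1.25 times its lowest. It had 739 and 783 in parental DMSO and 736 and 760 with PT2399, a mean difference of -0.03 (95% interval -0.58 to 0.53). In null cells it had 626 and 654 in DMSO and 732 and 730 with PT2399, so that both PT2399 arrays lay above both DMSO arrays. The null mean was 0.19 (SE 0.23). The interval for the gap between the genotypes' effects, -1.01 to 0.57, spans changes in either direction.

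RPTOR, the scaffold that brings substrates to mTORC1, had 367 and 420 in parental DMSO and 377 and 366 with PT2399. In null cells it had 276 and 291 in DMSO and 280 and 292 with PT2399. Its mean difference was -0.08 in parental cells (SE 0.23) and 0.02 in null cells (SE 0.23). The 24 h and 48 h pairs of parental cells had opposite signs.

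The 2 inhibitory subunits of the group behaved differently in level. AKT1S1, also called PRAS40, which AKT phosphorylates to release mTORC1, had 649 and 712 in parental DMSO and 707 and 867 with PT2399. Its mean was 0.20 (95% interval -0.36 to 0.77) in parental cells and 0.00 to 2 decimals in null cells, where intensities ran from 653 to 697. DEPTOR, which binds MTOR and restrains it, was dim, with 69.4 and 66.6 in parental DMSO and 115 and 65.9 with PT2399. In null cells DEPTOR had 90.2 and 116 in DMSO and 90.1 and 149 with PT2399, where 149 was its 1 value above the filter limit.

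EIF4EBP1, the translation repressor that mTORC1 inactivates, had 476 and 654 in parental DMSO and 405 and 578 with PT2399, a mean of -0.21 (95% interval -1.33 to 0.92). In null cells it had 603 and 436 in DMSO and 512 and 1380 with PT2399. The null difference was -0.23 at 24 h, equal to the parental 24 h value to 2 decimals, and 1.66 at 48 h. The 1380 on the null 48 h PT2399 array was the highest of its 8 values by a wide margin. Its null mean of 0.71 (SE 0.45) becomes -0.23 without the null 48 h arrays.

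**Figure D2:**
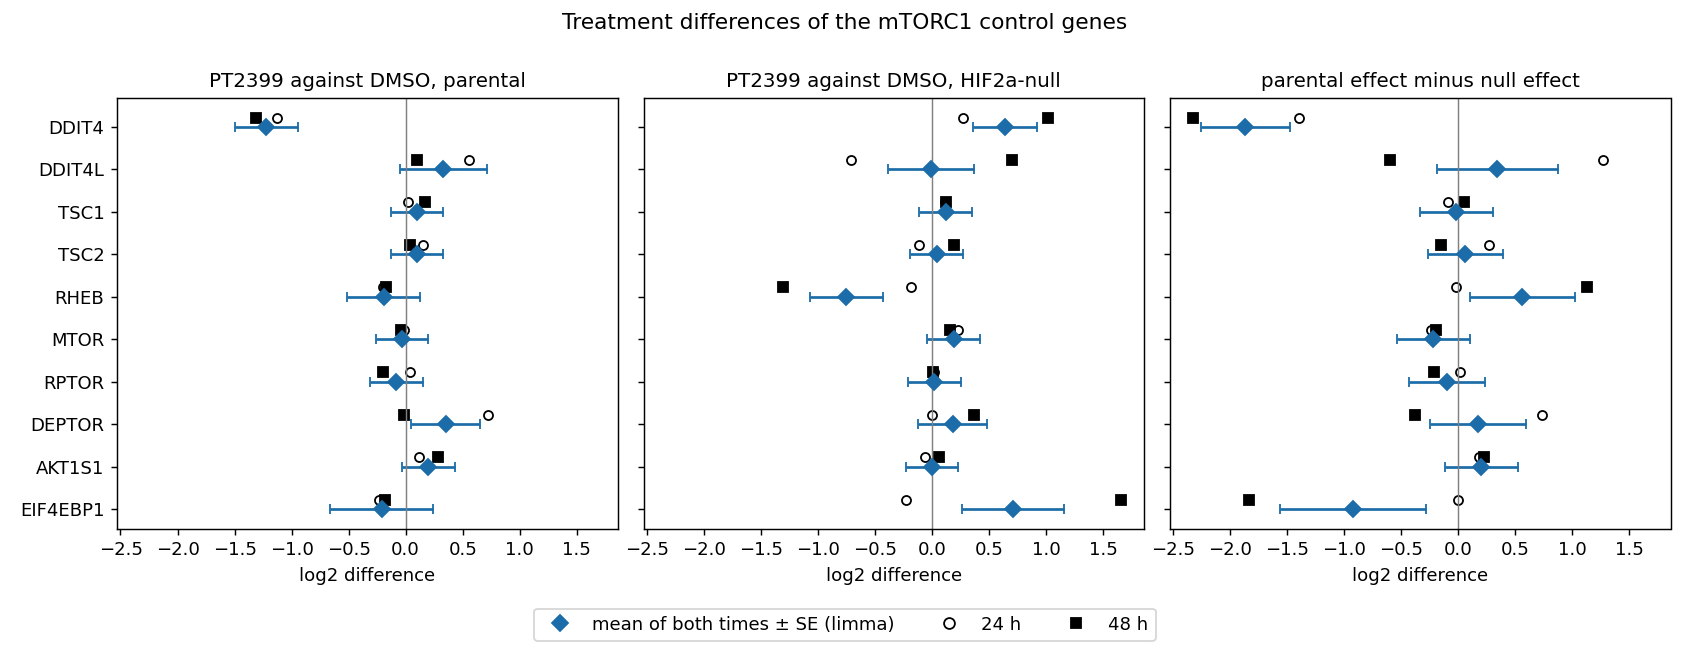
Log2 difference of PT2399 against DMSO in parental cells (left) and null cells (middle), and the gap between them (right), for the 10 genes. Diamonds are the means of both times with the limma SE as bars, open circles the 24 h value and filled squares the 48 h value; DDIT4 is at -1.22 in parental and 0.64 in null cells, and RHEB and EIF4EBP1 split by time in null cells.

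Against all genes, the members' counts were small. Over the 11050 genes limma called 0% in parental cells, 0% in null cells and 0% for the gap, and 0 of the 8 members. The lowest adjusted p among members was 1 in parental cells, 0.608 in null cells and 0.945 for the gap. At an unadjusted p under 0.05 there were 130 genes in parental cells, 481 in null cells and 192 for the gap, with 1, 0 and 1 of the members, DDIT4 both times. In parental cells 0.624% of genes were at least 1.5-fold lower at both times and 0.253% at least 2-fold lower, and DDIT4 was the 1 member in each count. Genes at least 1.5-fold higher at both times made up 0.362%, with 0 members. In null cells these shares were 0.525% lower and 0.172% higher, with 0 members in either.

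Both PT2399 arrays lay below both DMSO arrays in 17.3% of genes in parental cells, with DDIT4 and RHEB among the 8 members, and above them in 19.2%, with TSC1 and TSC2. In null cells the shares were 12.6% below, with RHEB, and 16.7% above, with MTOR. Genes lower at both times in parental cells and higher at both times in null cells made up 6.98%, and the members among them were DDIT4 and MTOR. Apart from DDIT4 the differences of these members in parental cells were at most 0.20 in size at either time. For the shares between 12.6% and 19.2%, counts of 1 or 2 in 8 are close to the background. The count of 2 in 8 is above the 6.98%, but it includes DDIT4, whose parental direction was known beforehand, and MTOR, whose mean differences were smaller than their SE.

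**Figure D3:**
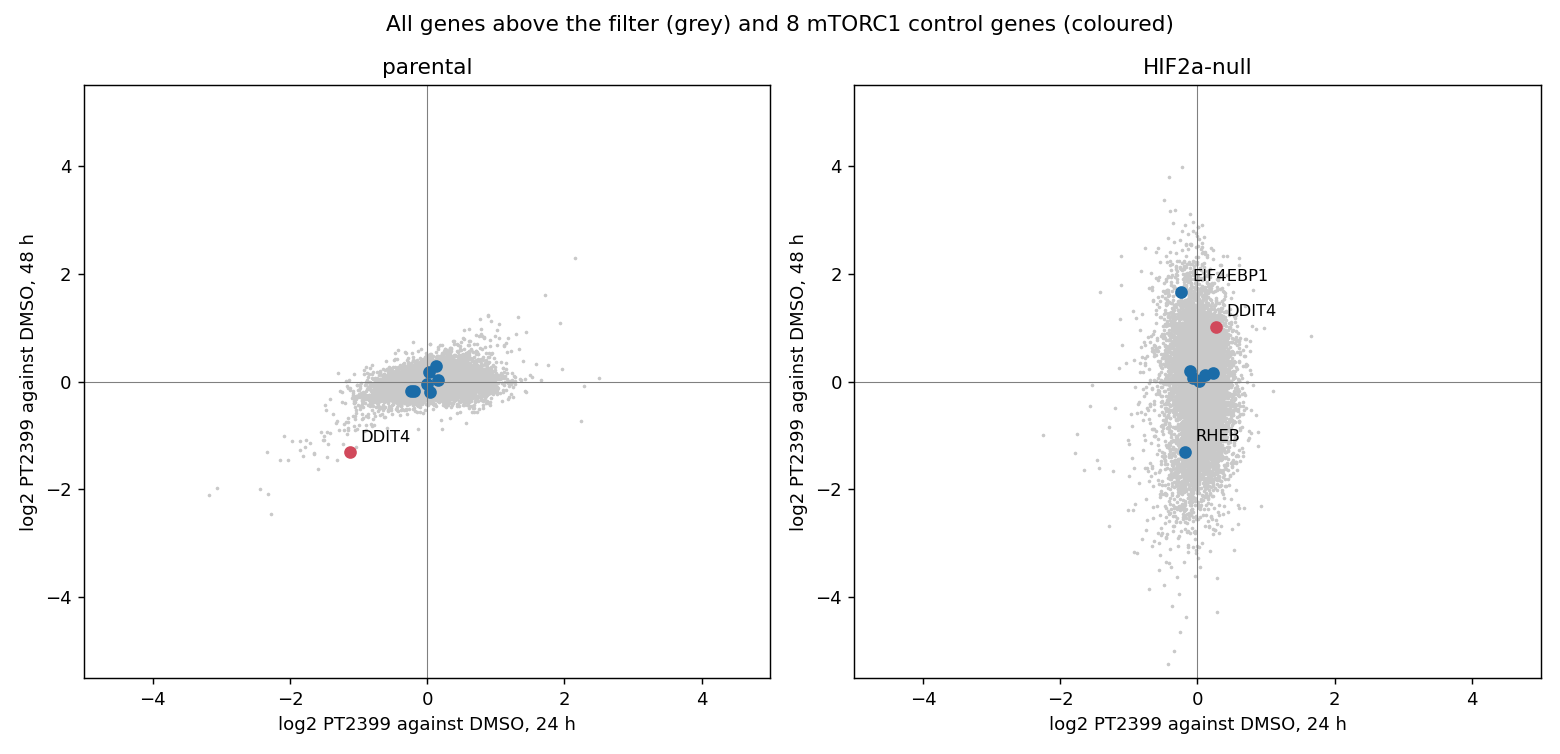
Log2 difference of PT2399 against DMSO at 24 h (horizontal) and at 48 h (vertical) for the 11050 genes above the filter in grey, with 7 mTORC1 control genes in blue and DDIT4 in red; parental cells left, null cells right. DDIT4 is at -1.13 and -1.31 in parental cells, and the null points spread far more along the 48 h axis (SD 0.928) than along the 24 h axis (SD 0.240).

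Levels between the genotypes were described with no test. TSC1 ran from 652 to 734 on the 4 parental arrays and from 313 to 421 on the 4 null arrays, lower in null DMSO cells by 0.77 at 24 h and by 1.06 at 48 h (log2). RPTOR ran from 366 to 420 in parental and from 276 to 292 in null cells. MTOR ran from 736 to 783 in parental and from 626 to 732 in null cells, where the 2 ranges nearly met. All 4 null arrays lay below all 4 parental arrays in 22% of genes and above them in 8.83%, and in 3 and 0 of the 8 members. DDIT4 in DMSO had no single direction, 0.44 lower in null cells at 24 h and 0.77 higher at 48 h (log2). TSC2, AKT1S1, RHEB and EIF4EBP1 overlapped between the genotypes.

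Between the times DDIT4 differed in opposite directions in the 2 genotypes. From 24 h to 48 h it differed by -0.61 in parental DMSO and by -0.79 with PT2399, and by 0.61 in null DMSO and 1.36 with PT2399. EIF4EBP1 in parental cells differed by 0.46 in DMSO and 0.51 with PT2399, and in null cells by -0.47 and 1.43. For TSC1, TSC2, RHEB, MTOR, RPTOR and AKT1S1 the parental values lay between -0.14 and 0.29. Each such value rests on 1 array per time, and the 1.36 and 1.43 involve the null 48 h PT2399 array that stood apart. A difference in direction between the genotypes is also one between the 2 experiments.

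The wider pathway was read through 4 lists from general knowledge: mTORC1 and mTORC2 subunits, the TSC-RHEB axis with its kinases, the amino acid branch, and substrates and effectors. Together they held 86 genes, of which 62 had a level above the filter. In parental cells 29 had lower and 33 higher values with PT2399 (median 0.01, against 0.02 over all genes), and 0 passed the limma test. At both times 16 of the 62 had lower and 17 higher values, where 2991 and 3397 of all 11050 genes did. In null cells 23 had lower and 39 higher values (median 0.12, against 0.03 over all genes), and 0 passed. For the gap between genotypes 37 were below 0 and 25 above it (median -0.09, against 0.04 over all genes), and 0 passed. By time, the null median was 0.06 at 24 h and 0.13 at 48 h, against 0.03 and 0.01 over all genes. The median gap was -0.02 at 24 h and -0.13 at 48 h, against -0.02 and 0.00 over all genes. The 48 h values involve the null 48 h PT2399 array that stood apart.

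Of the 9 subunit and assembly genes above the filter, 6 were lower and 3 higher in parental cells (median -0.03). The lowest was TTI1, a factor that helps assemble mTOR-family kinases, with 784 and 693 in DMSO and 548 and 458 with PT2399. TTI1 stood at -0.56 (SE 0.28), with -0.52 at 24 h and -0.60 at 48 h, and the null pairs gave 0.06 and -0.77. Of the 17 genes of the TSC-RHEB axis, 7 were lower and 10 higher (median 0.03). PRKAG2, an AMPK subunit, was the lowest at -0.32 (SE 0.26). PIK3R1, a regulatory subunit of PI3 kinase, stood at 0.18 (SE 0.30) in parental cells, and the null pairs gave -0.32 and -1.27.

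Of the 19 genes of the amino acid branch, 6 were lower and 13 higher in parental cells (median 0.03). SESN2, a stress-induced leucine sensor that restrains mTORC1, was highest at 0.39 (SE 0.24), with 0.59 at 24 h and 0.19 at 48 h. In null cells 15 of the 19 had higher and 4 lower values, where 5788 of all 11050 genes had higher ones. The list's null median was 0.08 at 24 h and 0.37 at 48 h, against 0.03 and 0.01 over all genes. LAMTOR2, a Ragulator subunit that anchors mTORC1 to lysosomes, was 0.14 at 24 h and 1.97 at 48 h in null cells. Both 48 h values involve the outlying null 48 h PT2399 array. Of the 17 substrates and effectors, 10 were lower and 7 higher in parental cells (median -0.03), from EIF4EBP1 at -0.21 to LPIN1, a lipid regulator, at 0.23 (SE 0.23). RPS6KB1, the S6 kinase gene, stood at -0.12 (SE 0.26) and ULK1, the autophagy kinase, at 0.16 (SE 0.29).

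A list of 9 genes, drawn up as stress-induced mTORC1 inhibitors, put DDIT4 beside other genes. How far each of them inhibits mTORC1 was not tested, and PRR5L is also in the list of subunits. Above the filter were 6, of which 2 had lower and 4 had higher values in parental cells (median 0.07), and 0 passed the test. TRIB3, a pseudokinase that restrains AKT, was the other lower gene, with 564 and 481 in DMSO and 254 and 286 with PT2399. TRIB3 stood at -0.95 (SE 0.33), with -1.15 at 24 h and -0.75 at 48 h, and the null pairs gave 0.52 and -0.56. TSC22D3, which glucocorticoids induce, stood at 0.25 (SE 0.23), and SESN2 was the highest. The genes of this list thus had values on both sides of 0 in parental cells.

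**Figure D4:**
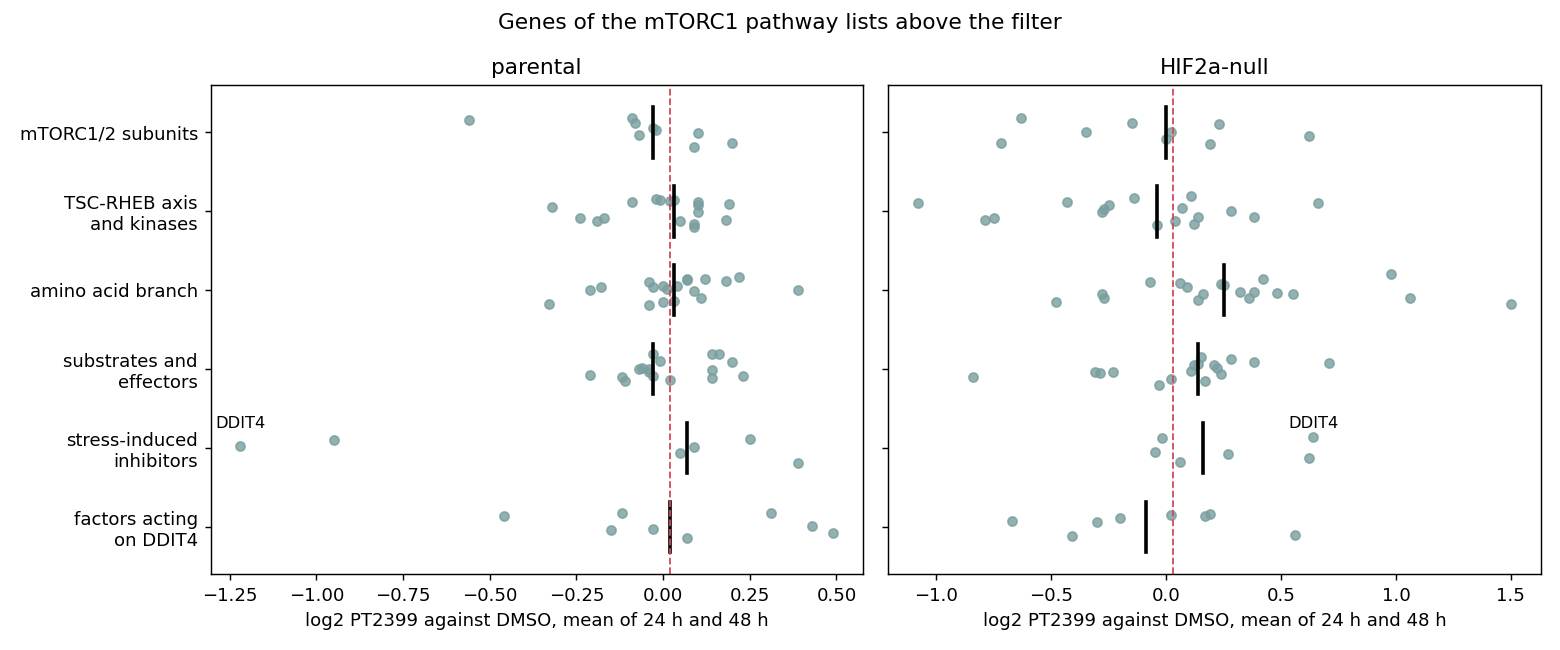
Mean log2 difference of PT2399 against DMSO over both times for the genes above the filter in 6 lists, in parental cells (left) and null cells (right); each point is 1 gene, the black bar the list median and the red dashed line the median of all 11050 genes. The 4 pathway lists have parental medians between -0.03 and 0.03, and DDIT4 at -1.22 is the lowest gene of all lists in parental cells.

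Transcription factors known to act on DDIT4 had values in both directions. In parental cells, 4 of the 8 measured had lower values and 4 higher (median 0.02), and 0 passed the test. NR3C1, the glucocorticoid receptor, had 1025 and 805 in DMSO and 676 and 641 with PT2399, a difference of -0.46 (SE 0.23). It was also lower in the null pairs, by -0.17 at 24 h and -0.23 at 48 h. ATF4, the integrated stress response factor, stood at -0.12 (SE 0.23). CEBPB stood at 0.49 (SE 0.26), HIF1A at 0.43 (SE 0.38) and EPAS1 at 0.31 (SE 0.23), all higher with PT2399 at both times in parental cells. In the null pairs CEBPB gave -0.01 at 24 h and -0.59 at 48 h, HIF1A 0.07 and -1.42, and EPAS1 0.07 and 0.30. These are RNA values, and the proteins were not measured.

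The genes most like DDIT4 over the 8 arrays were found by Pearson correlation of log2 values among 11049 genes, as a description. They were IKBKB (r = 0.943), TRIM56 (0.929), MGLL (0.902), KMT5A (0.894), FAM13A (0.891), SLC25A26 (0.890), ECE1 (0.865) and FOXRED1 (0.863). MGLL, which encodes monoacylglycerol lipase, had 818 and 764 in parental DMSO and 674 and 630 with PT2399. IKBKB ran only from 141 to 245, where DDIT4 ran from 473 to 4064. The most opposite was ALG3, a glycosylation enzyme, at r = -0.978, followed by CA13 (-0.936), CARM1, FIGN and HOXC12 (-0.931 each). After median centring ALG3 had -0.883, FIGN -0.807 and HOXC12 -0.931, but CA13 -0.528 and CARM1 -0.387. The 8 most alike genes then had values between 0.843 and 0.945. Without the null 48 h PT2399 array the 8 most alike genes kept values between 0.739 and 0.968. Among the members TSC1 had the lowest r, at -0.733, and EIF4EBP1 the highest, at 0.545, the latter -0.231 without that array. AKT1S1 had -0.697, which was -0.926 without that array and -0.104 after median centring. RHEB had -0.637, and -0.087 without that array. The 8 points share 2 experiments, and 1 of them is the array that stood apart.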

How the data were processed

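Transcript levels were measured on 8 Affymetrix whole-transcript arrays. The authors deposited probe set intensities on a linear scale, 1 for each of 33252 probe sets; for background correction, summarisation and scaling, methods are not given in sources used here. Log2 of these intensities was taken with no offset. Of the probe sets, 19460 had 1 gene in the platform annotation (19429 updated by Entrez identifier to GRCh38.p14 RefSeq symbols), 1754 had several and 12038 none, and only the first were used. A gene took its probe set with the highest mean. Genes under the percentile 40 of the mean (6.88 on the log2 scale, intensity 118) were left out of tests.

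Tests used limma 3.58.1 in R 4.3.3 (lmFit, eBayes), with a level, a time and a PT2399 term for each genotype, 2 residual degrees of freedom and Benjamini-Hochberg adjustment over 11050 genes at 0.05. DDIT4L and DEPTOR have their SE from the fit without the filter. The fit was run on simulated data with known changes, larger than that of DDIT4 in parental cells, and 1 spread per gene on all arrays. That run checks that the code returns known changes. It does not cover the wider spread of the null 48 h pair. Members and lists were chosen with earlier results of these data known. All 10 members are named; from each list, genes past the test or up to 4 with the largest parental difference in 1 direction at both times; EPAS1 is named as the edited gene. Scaling, offset, filter, probe set, arrays and time term were varied. The number of arrays limits the precision.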

Additional observations from a re-analysis of the deposited data

Results flagged for a closer look

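Effects of PT2399 that ran one way in both parental pairs and the other way in both null pairs were seen for 2 members. DDIT4 was lower in parental cells (-1.13 at 24 h, -1.31 at 48 h) and higher in null cells (0.27 and 1.02), a gap of -1.87 on the log2 scale (SE 0.39, limma adjusted p = 0.945 over 11050 genes). MTOR was at -0.01 and -0.04 in parental cells and at 0.23 and 0.16 in null cells, a gap of -0.22 (SE 0.32, limma adjusted p = 0.945), smaller than its error. Of all genes 6.98% had this pattern of signs in the same direction.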

How the results depend on the processing

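DDIT4 kept its direction in parental cells, in null cells and in their gap under every alternative run. Only a change of scaling could have altered it, because both pairs of each genotype already had that direction. In parental cells the DDIT4 difference ran from -1.33 with median centring to -1.13, and leaving out pairs gave -1.31 to -1.13. In null cells it ran from 0.27 without the null 48 h arrays to 1.02 without the null 24 h arrays, and the gap, with pairs left out, from -2.24 to -1.49. The number of genes limma called was 0 in each comparison with all 8 arrays under every scaling, offset, filter, probe set, time term and prior tried. With pairs left out the count ran from 0 to 4 in parental cells, 0 to 5137 in null cells and 0 to 3477 for the gap. The highest counts for null cells and the gap came without the null 24 h pair, where only the pair with the array that stood apart is left, and then DDIT4, RHEB and EIF4EBP1 were called in null cells and for the gap. In the arrays of a genotype alone it was 4 in parental and 14 in null cells, with 0 members, where DDIT4 had an adjusted p = 0.0955 in parental cells (range over alternatives 0.0955 to 1). Of 245 values of the other members above the filter under alternatives, 237 moved by at most 1 SE and 15 changed sign, under median centring, quantile normalization or a pair left out. Many of these values could not move. A change of filter, time term or prior, or leaving out arrays of the other genotype, gives the same estimate in this balanced design. The count is therefore no measure of robustness. DDIT4L and DEPTOR had a value only in the fit without the filter. In parental cells the all-gene median moved by -0.10 with median centring. No pairing beyond the time pairs already in the model was possible, because the labels give no replicate numbers.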

Other observations

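Several genes of the wider pathway differed in level between the experiments on parental and null cells, whatever the treatment. RPS6KB1, the S6 kinase gene, ran from 1357 to 1576 on the parental arrays and from 337 to 526 on the null arrays. SESN2 ran from 214 to 358 in parental and from 693 to 735 in null cells, and KICS2, a KICSTOR subunit, from 145 to 188 and from 410 to 962. DDIT3, the stress factor CHOP, named after its values were seen, ran from 146 to 165 in parental and from 667 to 1231 in null cells. Of the 62 pathway genes above the filter, 19 were lower on all null arrays and 7 higher, against 22% and 8.83% of all genes. In these values a genotype cannot be told apart from its experiment.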
